A study of Mus musculus with 32 samples.

Results

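The genes described here encode the cohesin ring and the proteins that work with it on chromatin: Smc1a, Smc3, Rad21, Stag1, Stag2, Nipbl, Pds5a, Pds5b and Ctcf. They were taken by symbol, before any filter, as 9 of the 24421 rows of the table of raw gene counts, and all 9 were among the 14154 genes that passed the filter on low counts and were tested. RNA was sequenced from 8 fractions of mouse bone marrow sorted by surface antigens: HSCs (hematopoietic stem cells), multipotent progenitors of the MPP1 to MPP4 gates, GMPs (progenitors of granulocytes and macrophages), MEPs (progenitors of megakaryocytes and erythrocytes) and CLPs (lymphoid progenitors). Each fraction came from C57BL/6 females that were either 10 weeks old (young) or 20 months old (aged), with no transgene, deletion or treatment, and there were 2 libraries for each of the 16 groups. The study describes the marrow as pooled and sorted in duplicate, and elsewhere the paired libraries of HSCs as biologically independent, so whether the p-values below measure a spread between animals or between sorts is not settled. In such bulk samples, fewer cells of a kind and less RNA per cell cannot be told apart.

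Cohesin is a ring that holds sister chromatids together and extrudes loops of DNA. The proteins SMC1A, SMC3 and RAD21 form the ring, to which either STAG1 or STAG2 binds. NIPBL loads cohesin with its partner MAU2 and drives extrusion, PDS5A and PDS5B regulate its release together with WAPL, and CTCF is the zinc finger protein that stops the moving ring at oriented sites. STAG2 and other cohesin genes are recurrently mutated in myeloid malignancies.

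The library totals ran from about 11237400 to 17723200 counts, and levels are given as CPM, the count scaled by the TMM-adjusted library size. The members were read at 402 to 3753 counts per library. The labels of the fractions were read against single defining genes, whose levels in other fractions are not given here. These genes cannot show that young and aged gates matched in composition. Of 8 neutrophil markers, 4 were called lower and 0 higher in aged GMPs (edgeR, adjusted p under 0.01), with a median log2 difference of -1.36. Of 10 erythroid markers, 1 was called lower and 0 higher in aged MEPs (median -0.61). Over all tested genes both medians were 0, with 1269 and 1658 called lower. Mean Mpo, a granulocytic peroxidase, was 69001 CPM in young and 68354 CPM in aged GMPs, and mean Klf1, an erythroid factor, was 1002 CPM in young and 1092 CPM in aged MEPs. Mean Il7r, the interleukin receptor of lymphoid progenitors, was 158 CPM in young and 195 CPM in aged CLPs, and mean Slamf1, which encodes CD150, was 53.9 CPM in young and 74.1 CPM in aged HSCs. Young CLPs also carried basophil RNA, with 5 basophil and mast cell markers summed at 1737 and 1785 CPM against 8.26 and 12.04 CPM in aged CLPs, and with Prss34, a basophil protease, at 0 in both aged libraries.

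Positions are those of GRCm38 (mm10) with the GENCODE M21 annotation. Smc1a (ENSMUSG00000041133.11, chrX:152016428-152062694, plus strand) and Stag2 (ENSMUSG00000025862.14, chrX:42149317-42277185, plus strand) are both X-linked. Smc3 lies at chr19:53600398-53645833 on the plus strand and Rad21 at chr15:51962240-51991747 on the minus strand, as does Nipbl at chr15:8290617-8444463. Stag1 spans chr9:100597798-100959375 on the plus strand. Pds5a (chr5:65605721-65698273, minus strand) and Pds5b (chr5:150673739-150810690, plus strand) share chromosome 5, and Ctcf lies at chr8:105636568-105682922 on the plus strand. Exons of Ctcf overlap those of Gm5914 by 370 bases and of Agrp by 114 bases, both on the opposite strand, and exons of Pds5a overlap Gm42727 and Gm42729 by 255 and 119 bases. Since the library kit does not mark strand, reads in those stretches cannot be assigned to one gene.

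RefSeq promoter windows, from 250 bases before to 50 bases after the gene start (GRCm38.p6), were matched by symbol for 6 of the 9 genes: Smc1a, Smc3, Stag1, Pds5a, Pds5b and Ctcf. The windows were searched on both strands for 5 short motifs, chosen after the windows had been looked at. The YY1 motif GCCATNTT was in 4 of the 6 member windows against 6.05% of all 32851 windows. It is shown because YY1 works with CTCF at chromatin loops and its own gene, Yy1, changed with age in these data. Each stretch of 30 bases below reads 5′ to 3′ on the plus strand, which is the coding strand of all 4 genes, with the match in capitals.
Ctcf: accgcgccgccGCCATTTTgtgtccgagcc
Smc3: ccgcggccgccGCCATTTTgtttggccaca
Pds5b: ctgctcttggcGCCATTTTgaagcggagag
Stag1: gagaagctctaAAAATGGCgggcggcaacc
The stretches are chr8:105636537-105636566, chr19:53600385-53600414, chr5:150673779-150673808 and chr9:100643235-100643264 in that order. Counting the RefSeq start as 0, the match began at position 10 in Ctcf, 0 in Smc3, -37 in Pds5b and -202 in Stag1, where it was read on the opposite strand. The Stag1 stretch lies well inside the gene span given above, which begins at 100597798, so the RefSeq start used is not the start of that span. The Pds5b match precedes the RefSeq start but lies inside the span, which begins at 150673739. The Ctcf match follows the RefSeq start but lies before the span, which begins at 105636568. For these genes too, the RefSeq start is not the start of the span. The E2F motif TTTNNCGC was in 3 of the 6 windows (Pds5a, Smc1a, Stag1) against 5.17% of all windows, CCAAT in 3 against 37.4%, the SP1 motif GGGCGG in 6 against 35.7%, and the cell-cycle homology region TTTGAA in 2 against 17.9%. Since the motifs were chosen after the windows had been seen, these shares are no test of enrichment. These are matches of letters and not sites of binding, and in Pds5b the TTTGAA match overlaps the YY1 match shown.

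To compare genes, levels were divided by the length of the longest transcript linked to RefSeq. On that scale the median over the 16 group means was 43.3 CPM per kb for Smc1a and 27.5 CPM per kb for Smc3, the 2 arms of the ring, and 20.6 CPM per kb for Rad21, the link that closes it. The STAG paralogs stood at 31.1 CPM per kb for Stag2 and 16.6 CPM per kb for Stag1. Pds5a reached 30.2 CPM per kb and Pds5b 14.5 CPM per kb, although the exons of Pds5a add up to 19335 bases and only a transcript of 4146 bases was used for it. Ctcf stood at 29.4 CPM per kb, and the loader Nipbl was the lowest member at 4.31 CPM per kb. Its transcript was the longest used, at 9423 bases, and evenness of coverage along transcripts was not checked. Undivided, its median over libraries was 40.3 CPM, still the lowest, with Rad21 next at 82.4 CPM.

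All 9 genes had their lowest young mean in HSCs, and 7 of 9 their lowest aged mean, the exceptions being Nipbl, lowest in aged MPP3, and Pds5b, lowest in aged MEPs. The 8 young groups differed for 9 of 9 members and the 8 aged groups for 8 of 9 (F-tests of edgeR with 7 degrees of freedom, adjusted p under 0.01), beside 86.9% and 85.5% of all tested genes, so this count does not set the members apart. The exception among aged groups was Smc1a (adjusted p = 0.0122), which was called with offsets for GC content and length (adjusted p = 9.31e-08). Against young HSCs, MPP1 had 5 members called higher (9.1% of all tested genes), MPP2 had 8 (17.5%), MPP3 had 8 (17.5%), MPP4 had all 9 (18.5%), GMPs had 5 (31.8%), MEPs had 6 (29.7%) and CLPs had all 9 (29.2%), and none was called lower. The 7 comparisons share the young HSC libraries. The median member difference ran from 0.54 (log2) in GMPs to 1.18 in CLPs.

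**Figure D1:**
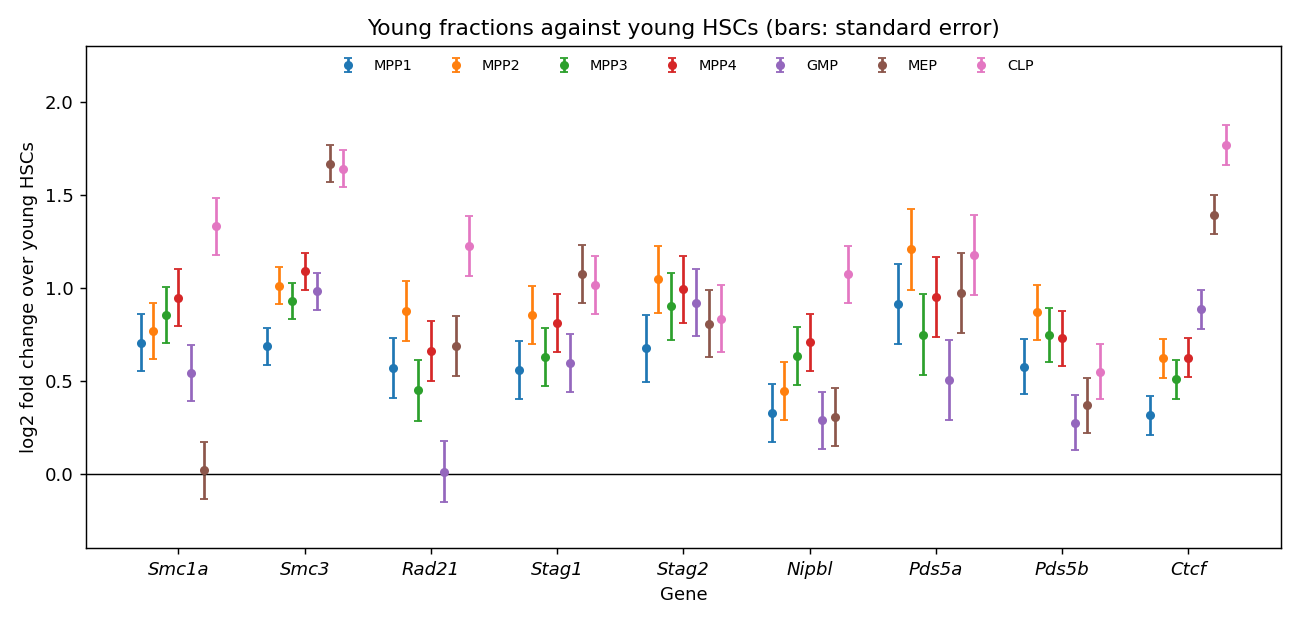
Difference of each young fraction from young HSCs for the 9 genes (y axis: log2 fold change from edgeR, bars: standard error; 2 libraries per group). All 63 points lie above 0, the lowest being Rad21 in GMPs and Smc1a in MEPs, and the highest Ctcf in CLPs at 1.77.

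The genes did not follow one order across the fractions. Ctcf had its lowest mean in HSCs, then the MPPs, GMPs, MEPs and CLPs. Its young libraries read 78.7 and 62.6 CPM in HSCs, 127 and 133 CPM in GMPs, 194 and 177 CPM in MEPs and 239 and 241 CPM in CLPs. The last 3 groups did not overlap with each other, and the young CLP mean was 3.40-fold the young HSC mean, the widest range of any member within young cells. With offsets for GC content and length, Ctcf was instead highest in MEPs, at 244 CPM in young and 262 CPM in aged cells. The widest young range was then that of Smc3 (4.20-fold), with Ctcf at 3.63-fold. Smc3 was also high in MEPs and CLPs, at 195 and 220 CPM in young MEPs and 196 and 211 CPM in young CLPs against 70.7 and 60.1 CPM in young HSCs, and these MEP and CLP libraries overlapped. Rad21 was as low in young GMPs (47.8 and 59.6 CPM) as in young HSCs (57.3 and 49.5 CPM) and highest in young CLPs (121 and 128 CPM). Nipbl had its peak in CLPs as well, with 64.7 and 71.1 CPM in young and 68.3 and 67.7 CPM in aged CLPs, while every other young group had a mean of 52.7 CPM or less. With the offsets, the young Nipbl means were 58.9 CPM in GMPs, 61.1 CPM in MEPs and 65.8 CPM in CLPs. Aged MEPs (80.0 CPM) then stood above aged CLPs (67.5 CPM).

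Stag2, Pds5a and Pds5b had their highest young means in MPP2, at 225, 149 and 133 CPM, and Stag1 was highest in young MEPs at 129 CPM. The MPP2 peaks depended on the processing. With offsets for GC content and length, Stag2 was highest in young GMPs (255 CPM). Pds5a (163 CPM), Pds5b (134 CPM) and Stag1 (180 CPM) were then highest in young MEPs. Many neighbours in the order were within each other's spread. Of 7 neighbouring pairs of young groups, the libraries overlapped in 5 for Stag2, 5 for Pds5a, 4 for Pds5b and 3 for Stag1. In MPP3 and MPP4 the 2 libraries disagreed for Pds5a at both ages, with 126 and 90.2 CPM in young MPP3, 155 and 93.7 CPM in young MPP4, 155 and 126 CPM in aged MPP3 and 175 and 118 CPM in aged MPP4. The second library was the lower one in all 4 groups.

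**Figure D2:**
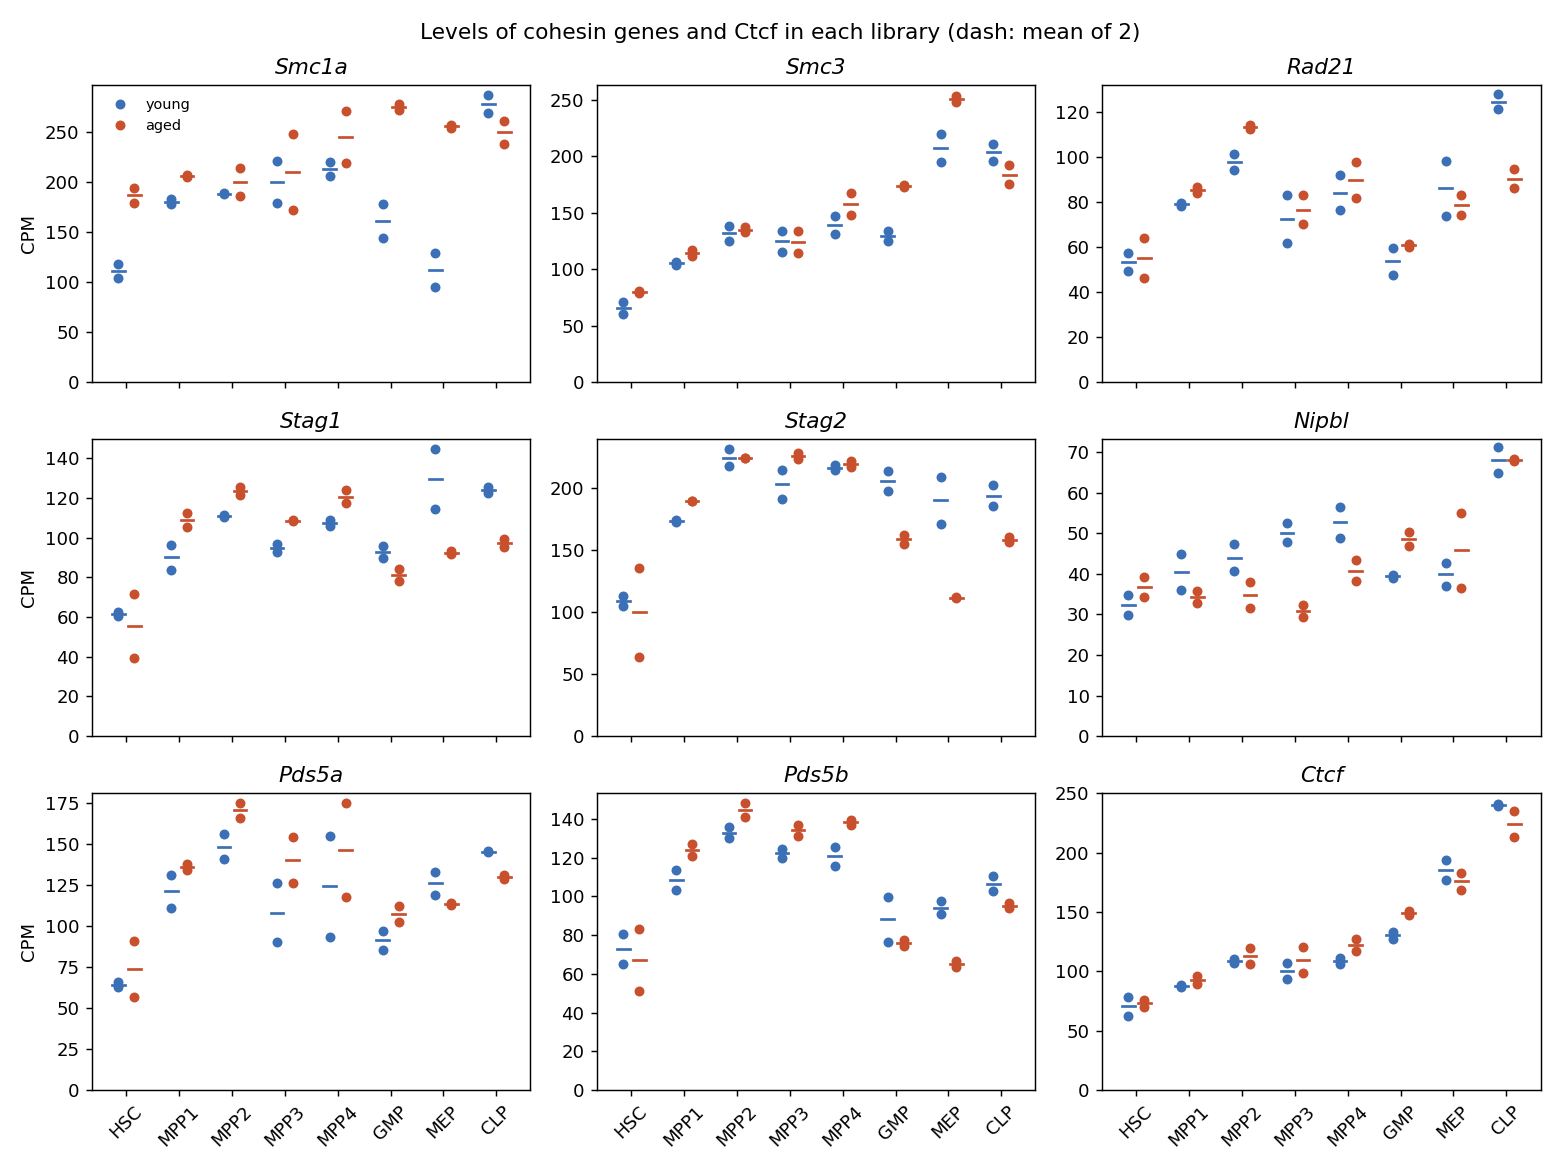
Level of each gene in every library (y axis: CPM, starting at 0; x axis: fraction; points: libraries; dashes: means of 2 libraries). Smc1a in HSCs, GMPs and MEPs shows aged points well above young ones, while Ctcf follows nearly the same course at both ages.

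With age, Smc1a changed most. It was upregulated in aged HSCs, GMPs and MEPs and not called in any MPP or in CLPs. In HSCs the young libraries read 118 and 104 CPM and the aged ones 194 and 179 CPM, a log2 fold change of 0.75 (SE 0.15, adjusted p = 0.00217). In GMPs it rose from 144 and 178 CPM to 279 and 273 CPM, by 0.77 (SE 0.15, adjusted p = 0.000557). In MEPs it rose from 129 and 95.3 CPM to 258 and 255 CPM, by 1.19 (SE 0.15, adjusted p = 4.23e-06). The young and aged libraries did not overlap in any of these fractions. That alone sets little apart, since 9 of 9 members did not overlap in MPP1 and 8 of 9 in CLPs, where none was called. The share of all genes without overlap was not counted. Erythroid markers were summed at 813 CPM in young and 58.6 CPM in aged GMPs, and neutrophil markers at 282 CPM in young and 725 CPM in aged HSCs. In HSCs basophil and mast cell markers (1.30 to 14.3 CPM) and T and natural killer cell markers (32.6 to 86.7 CPM) were higher with age too. Macrophage markers were lower there (43.4 to 21.5 CPM). The part of such markers in these differences was not tested. In young cells the MEP mean of 112 CPM lay beside the HSC mean of 111 CPM at the bottom of the order, whereas in aged cells MEPs (256 CPM) and GMPs (276 CPM) were at the top. The fold between the highest and lowest group was 2.51 in young and 1.48 in aged cells, but with offsets for GC content and length it was 2.58 and 2.47, and the young MEP mean (160 CPM) then stood above the young HSC mean (103 CPM). The 4 MPPs gave differences between 0.07 and 0.20 (log2), and CLPs -0.16. The mean over the 8 fractions was 0.39 (SE 0.05, adjusted p = 4.89e-06).

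The Smc1a difference itself depended on the fraction (interaction F-test, adjusted p = 0.000198), and it exceeded the mean difference of the MPPs by 1.05 in MEPs (SE 0.17, adjusted p = 5.11e-05) and by 0.64 in GMPs (SE 0.17, adjusted p = 0.0048). In HSCs the excess of 0.62 missed the threshold (SE 0.17, adjusted p = 0.0267). The excess in GMPs was called in 13 of 20 fits that left out 1 library, and that in MEPs in all 20. With the GC and length offsets the GMP excess was 0.43 and was not called. The MEP rise kept its call without any 1 of the 4 libraries. The GMP rise lost it without young GMP replicate 1 (0.62, adjusted p = 0.0181), and the HSC rise lost it without young HSC replicate 1, young HSC replicate 2 or aged HSC replicate 1, its values then lying between 0.62 and 0.82.

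Smc3, the partner arm, rose with age in GMPs, from 133 and 125 CPM to 175 and 173 CPM (0.43, SE 0.10, adjusted p = 0.0019), and in the mean over 8 fractions (0.15, SE 0.03, adjusted p = 0.00157). In MEPs the libraries went from 195 and 220 CPM to 248 and 253 CPM without passing the threshold (0.27, SE 0.10, adjusted p = 0.0319), but with the GC and length offsets the value was 0.54 and was called (adjusted p = 0.000455). The GMP call was lost without young GMP replicate 2, aged GMP replicate 1 or aged GMP replicate 2, and that of the mean over 8 fractions without young GMP replicate 2. Rad21, the remaining ring subunit, was not called in any age comparison. Its largest difference was in CLPs, where 121 and 128 CPM in young and 86.3 and 94.6 CPM in aged libraries did not overlap (-0.46, SE 0.16, adjusted p = 0.0450). Markers of other cells moved with age in the same CLP libraries: the basophil markers named above, and the B cell list, whose mean summed level was 2608 CPM in young and 1250 CPM in aged CLPs. Neutrophil (1937 to 355 CPM), macrophage (205 to 63.2 CPM) and erythroid markers (1409 to 305 CPM) were lower too. Markers of megakaryocytes (39.2 to 172 CPM) and of T and natural killer cells (111 to 140 CPM) were higher. Their part in the Rad21 difference was not tested.

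Stag2 and Pds5b fell in aged MEPs, while Stag1, the other STAG subunit, did not pass the test. Stag2 went from 209 and 172 CPM to 112 and 112 CPM (-0.77, SE 0.18, adjusted p = 0.00246). Pds5b went from 97.4 and 90.7 CPM to 63.4 and 66.4 CPM (-0.53, SE 0.15, adjusted p = 0.00869). Stag1 read 114 and 145 CPM in young and 93.2 and 91.7 CPM in aged MEPs, which did not pass (-0.48, SE 0.15, adjusted p = 0.0197). In all 3 genes every aged MEP library was below both young ones. That alone sets little apart, since the libraries of the 2 ages did not overlap for 6 of 9 members in MEPs. In MPP1 they did not overlap for 9 of 9, and none was called. The share of all genes without overlap was not counted in either fraction. Relative to the mean of the MPPs, the age difference in MEPs was lower by 0.84 for Stag2 (SE 0.20, adjusted p = 0.00229), by 0.70 for Pds5b (SE 0.17, adjusted p = 0.00229) and by 0.68 for Stag1 (SE 0.17, adjusted p = 0.00358). Of 20 fits that left out 1 library, these were called in 17, 18 and 17.

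The MEP falls depended on the processing. With offsets for GC content and transcript length the Stag2 value was -0.37 (adjusted p = 0.0132) and the Pds5b value -0.26 (adjusted p = 0.0373), and neither was called. Pds5b lost its call without any 1 of the 4 MEP libraries, and Stag2 lost it without young MEP replicate 1, aged MEP replicate 1 or aged MEP replicate 2. The Smc1a rise in MEPs was 1.35 with the same offsets. B cell markers were summed at 188 CPM in young and 0.82 CPM in aged MEPs. Neutrophil (266 to 74.9 CPM), macrophage (9.42 to 0.52 CPM) and megakaryocyte markers (107 to 61.3 CPM) were lower in aged MEPs too. The summed level of erythroid markers was higher (5850 to 6486 CPM), although the median difference of the 10 genes was -0.61 (log2). The part of these markers in the MEP differences was not tested.

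In aged HSCs the 2 libraries disagreed for 5 members, these 3 among them. Stag2 read 135 and 64.2 CPM, Stag1 71.8 and 39.5 CPM, and Pds5b 83.3 and 51.0 CPM, while the young HSC libraries read 113 and 105 CPM, 62.5 and 60.4 CPM, and 80.7 and 65.1 CPM. Pds5a read 90.9 and 56.5 CPM in aged against 66.1 and 62.8 CPM in young HSCs, and Rad21 63.9 and 46.2 CPM against 57.3 and 49.5 CPM. The first aged library was above the young ones and the second below them in all 5. None was called with both libraries. With the first aged library left out, the first 3 were called lower, at -0.80 for Stag2, -0.68 for Stag1 and -0.55 for Pds5b, and with the second left out the values were 0.30, 0.21 and 0.18, with no call. After the GC and length offsets the aged libraries lay below both young ones in all 3 genes, at 105.5 and 71.3 CPM against 107.5 and 106.5 CPM for Stag2, 57.7 and 40.6 CPM against 58.9 and 60.6 CPM for Stag1, and 64.4 and 52.9 CPM against 75.0 and 65.3 CPM for Pds5b, still with no call. Smc1a, by contrast, read 194 and 179 CPM in these libraries.

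Nipbl, the loader, fell in aged MPP3, from 47.8 and 52.5 CPM to 32.3 and 29.3 CPM (-0.70, SE 0.15, adjusted p = 0.0021), and in the mean of the 4 MPPs by 0.41 on the log2 scale (SE 0.08, adjusted p = 0.000133). Each other MPP gave a lower value with age too, at -0.24 in MPP1, -0.34 in MPP2 and -0.37 in MPP4, none of them called. In aged GMPs it read 50.3 and 46.9 CPM against 39.0 and 39.8 CPM in young ones (0.30, adjusted p = 0.153). The age difference of Nipbl depended on the fraction (interaction, adjusted p = 0.00538) and was above the mean of the MPPs by 0.71 in GMPs (SE 0.17, adjusted p = 0.0023) and by 0.61 in MEPs (SE 0.17, adjusted p = 0.00822). Leaving out 1 library, the interaction was called in 9 of 32 fits, the excess in GMPs in 18 of 20 and that in MEPs in 3 of 20, falling to 0.23 without aged MEP replicate 1. With offsets for GC content and length the interaction and the GMP excess (0.41) were not called, nor was the MPP3 fall (-0.48). The mean fall over the MPPs kept its call without any 1 of the 16 MPP libraries and with the offsets (-0.25, adjusted p = 0.00586), but the MPP3 call did not survive leaving out any of the 4 MPP3 libraries, whose values then lay between -0.74 and -0.60. Neutrophil markers were summed at 4626 CPM in young and 2193 CPM in aged MPP3, and erythroid markers at 1135 and 226 CPM, and their part in the Nipbl difference was not tested.

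Pds5a and Ctcf were not called in any age comparison as fitted without offsets. Ctcf differed by between -0.10 and 0.19 (log2) over the 8 fractions, with standard errors of 0.10 to 0.11, and Pds5a by between -0.16 and 0.38, with standard errors of 0.21 to 0.22. A missed threshold does not show that their levels were equal.

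**Figure D3:**
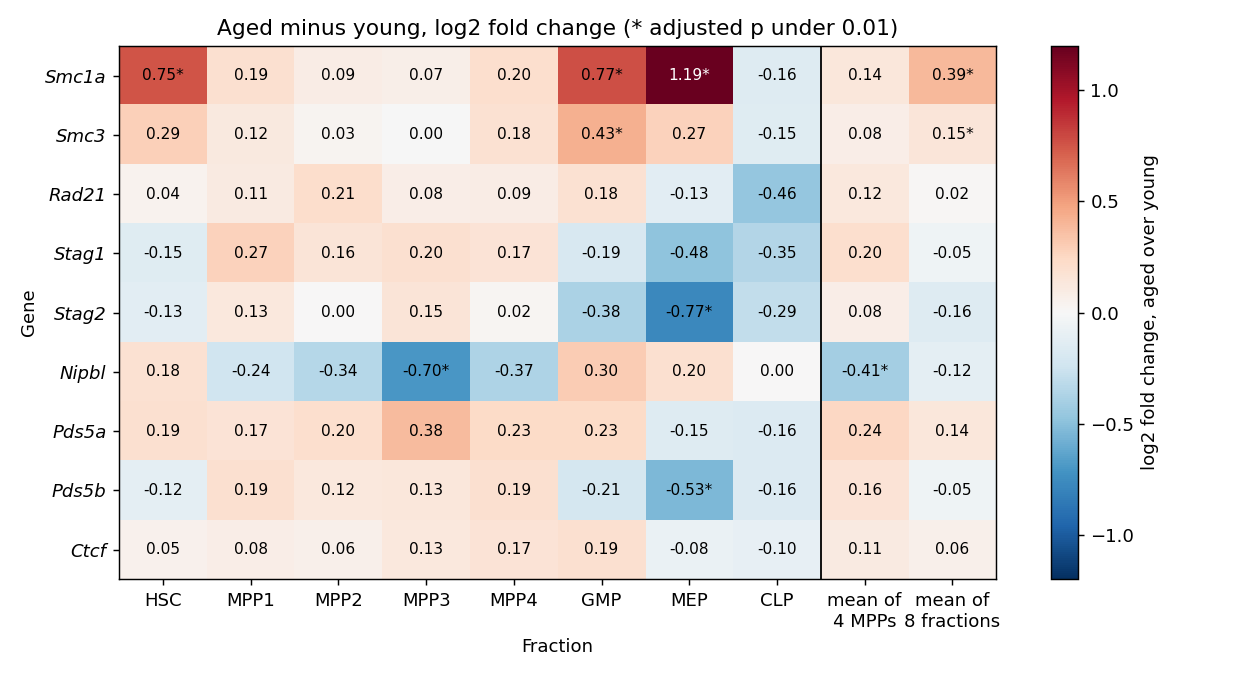
Log2 fold change of aged over young for each gene (rows) in each fraction and in the means of the 4 MPPs and 8 fractions (columns), with a star at adjusted p under 0.01. Of the 72 single-fraction cells, 7 carry a star: Smc1a in HSCs, GMPs and MEPs, Smc3 in GMPs, Stag2 and Pds5b in MEPs, and Nipbl in MPP3.

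Counted by fraction, the members called for age were 1 of 9 in HSCs, where 5.4% of all tested genes were called. MPP1 (6.8%), MPP2 (7.81%), MPP4 (16.6%) and CLPs (10.4%) had 0, MPP3 had 1 (13.9%), GMPs had 2 (18.9%) and MEPs had 3 (20.8%). In the mean of the MPPs 1 of 9 was called beside 36.7% of all genes, and in the mean over 8 fractions 2 of 9 beside 29.2%. With offsets for GC content and length 7 of 9 were called in the mean of the MPPs, Nipbl lower and Smc3, Stag1, Stag2, Pds5a, Pds5b and Ctcf higher, with values of 0.17 to 0.32 for these 6, beside 39.5% of all genes in that fit. The offsets moved all genes upward there, with 3841 called higher and 1750 lower, against 2681 and 2507 without offsets. Offsets also added Pds5b in MPP3 (0.34) and MPP4 (0.38), both higher with age. Where none was called, the members with an unadjusted p under 0.05 in the same edgeR test numbered 0 in MPP1, 1 each in MPP2 and MPP4, and 2 in CLPs, and DESeq2 called none in those fractions. The age difference depended on the fraction for 2 of 9 members, Smc1a and Nipbl, beside 34.9% of all genes. Against the mean of the MPPs, 0 members differed in HSCs (3.01% of all genes), 2 in GMPs (26.6%), 5 in MEPs (24.8%) and 0 in CLPs (22.6%). The unadjusted p was under 0.05 for 2 members in HSCs and 4 in CLPs, and DESeq2 called 2 in each. The median member difference was 0.17 in MPP4 and -0.16 in CLPs, where the medians of all tested genes were -0.02 and 0.

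Since members of a pair share a library, their ratio is free of the library scaling. The ratio of Smc1a to Smc3 counts rose with age by 0.24 (log2) in the mean over fractions, with 7 of 8 fractions higher (exact permutation of age within fractions, two-sided, p = 0.00331, adjusted p = 0.00868 over 4 ratios). In MEPs it went from 0.662 and 0.434 to 1.04 and 1.01, in HSCs from 1.67 and 1.73 to 2.42 and 2.27, and in GMPs from 1.08 and 1.43 to 1.60 and 1.58, with no overlap in any of the 3. The libraries did not overlap in MPP1 either, at a difference of 0.07. The ratio of Stag2 to Stag1 fell by 0.11, lower in 7 of 8 fractions (exact permutation p = 0.00434, adjusted p = 0.00868), but with the GC and length offsets by 0.052, which did not pass (exact permutation, adjusted p = 0.183). In GMPs it went from 2.20 and 2.23 to 1.92 and 1.98. Young MEPs were split, at 1.83 and 1.19, and aged MEPs lay between them, at 1.197 and 1.219.

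The ratio of Pds5b to Pds5a fell by 0.19, lower in 6 of 8 fractions (exact permutation p = 0.0120, adjusted p = 0.0160), and with the offsets by 0.16 without passing (adjusted p = 0.116), and the ratio of Nipbl to Mau2, the other subunit of the loader, differed by -0.15 without passing (exact permutation p = 0.0751, adjusted p = 0.0751). Mau2 itself was called higher only in GMPs (0.29) among the 8 fractions. Without GMPs and MEPs none of the first 3 ratios passed, with mean differences of 0.11 for Smc1a to Smc3, -0.07 for Stag2 to Stag1 and -0.11 for Pds5b to Pds5a. In the 4 MPPs alone the Nipbl to Mau2 ratio fell by 0.32 (exact permutation, adjusted p = 0.0123), from 0.484 and 0.476 to 0.314 and 0.283 in MPP3. These are the fractions in whose mean Nipbl was already called lower, and the ratio uses the same Nipbl counts. It is therefore no separate support for that fall.

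**Figure D4:**
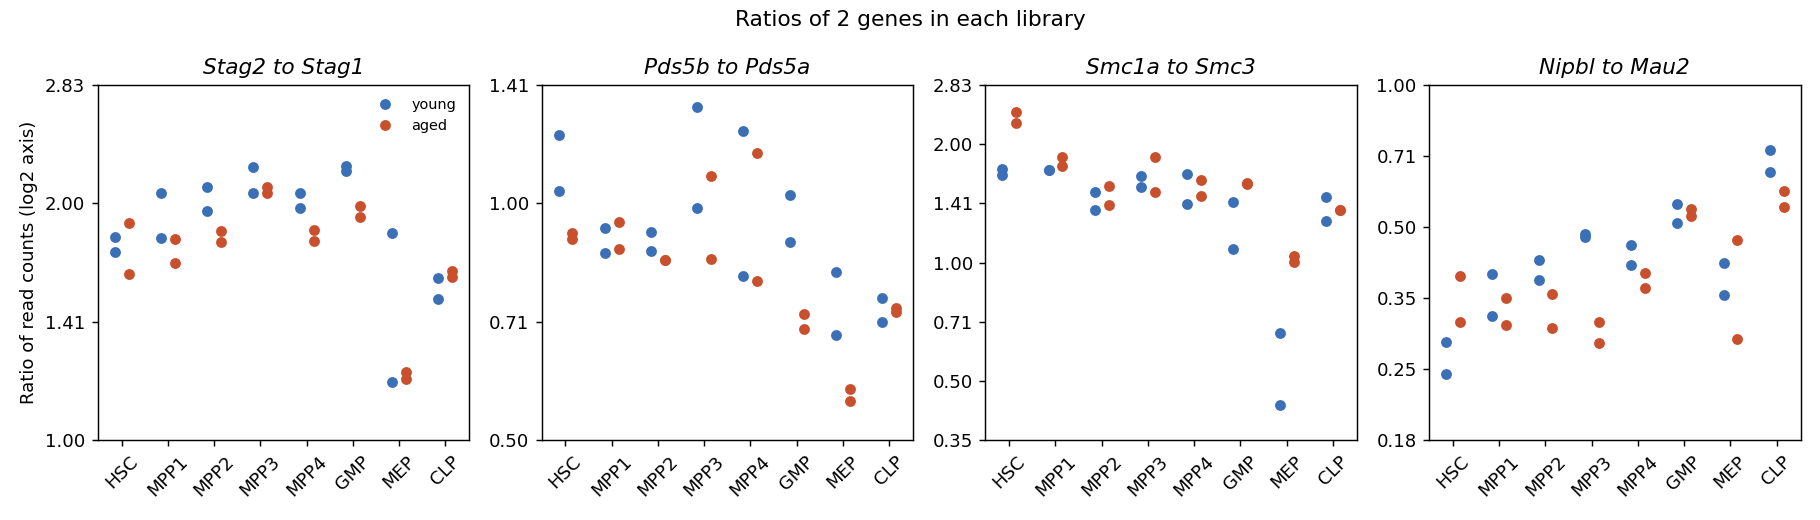
Ratio of read counts of 2 genes in each library (y axis: ratio on a log2 axis with its own range in each panel; x axis: fraction; points: libraries). In MEPs the Smc1a to Smc3 points lie at 0.434 and 0.662 in young and at 1.01 and 1.04 in aged cells.

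The other genes of the pathway were read from lists chosen with earlier results of these data known. Of 16 further cohesin regulators, 12 were called higher with age in at least 1 fraction and 5 lower in at least 1, and 4 in none, beside 29.6% and 26.1% of all tested genes called higher and lower in at least 1 fraction. Averaged over the fractions 8 were called higher and 1 lower, beside 16.2% and 13% of all genes, and the median was 0.16 (log2) against -0.01 for all tested genes. The largest were Espl1, the protease separase that cuts RAD21 (0.60), Chtf18, which helps load the replication clamp (0.48), and Cdca5, or sororin, which protects cohesion after replication (0.37). In aged HSCs Espl1 rose from 9.87 and 5.93 CPM to 14.5 and 19.6 CPM, and Cdca5 from 9.79 and 12.5 CPM to 17.4 and 18.7 CPM. Wapal (Wapl), the release factor, was called in no fraction. In CLPs 4 of the 16 fell, beside 4.73% of all genes, and none rose.

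The condensin and Smc5/6 list, which holds the other SMC complexes, had 10 of 14 genes called higher in the mean over 8 fractions and none lower. Over all tested genes these shares were 16.2% and 13%. The condensin subunits Ncapg (0.45), Ncaph (0.44) and Ncapd2 (0.34) changed most. In CLPs 5 of the 14 fell, beside 4.73% of all genes. Of 7 genes for proteins that work with CTCF, 2 fell in the mean over fractions and none rose, beside 13% and 16.2% of all genes. Vezf1, a zinc finger protein that binds DNA, fell by 0.28, and Yy1 fell by 0.24. Yy1 was called lower in GMPs, from 32.6 and 30.5 CPM to 19.1 and 17.9 CPM, and in MEPs, from 26.9 and 33.7 CPM to 20.8 and 17.9 CPM.

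Of the germline members of the family only Rec8, the meiotic counterpart of RAD21, was well above the floor in most fractions. Rad21l and Ctcfl had 0 counts in all 32 libraries, where a count of 0 allows up to 0.281 CPM in the shallowest, and Smc1b reached at most 0.255 CPM. Rec8 read 32.8 and 34.7 CPM in young and 39.0 and 51.1 CPM in aged HSCs, and was called lower with age in MPP4 (-1.24), from 16.3 and 17.1 CPM to 6.60 and 7.52 CPM. Stag3 stayed at 2.7 CPM or less in every library but those of young CLPs, at 6.24 and 10.5 CPM.

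**Figure D5:**
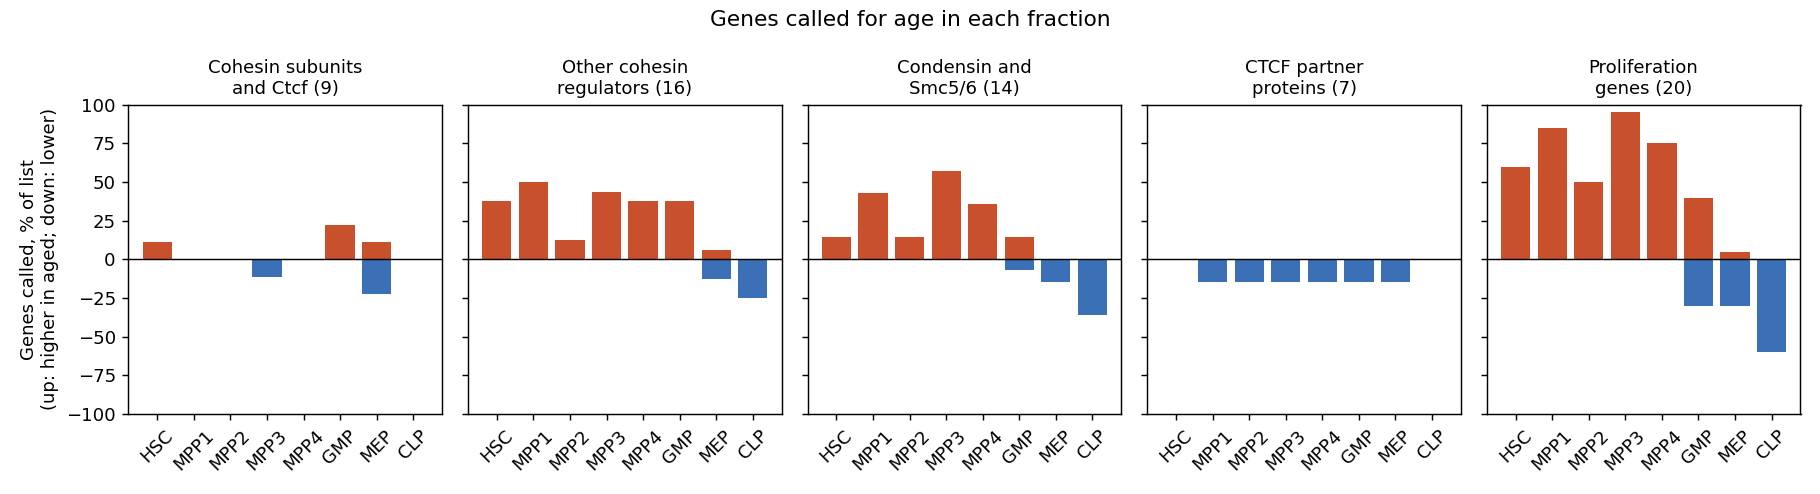
Share of each list called for age in each fraction (y axis: percent of the list's tested genes, higher in aged upward and lower downward; x axis: fraction; number of genes in brackets). The 20 proliferation genes were mostly called higher in MPP3 (19) and lower in CLPs (12), whereas the 9 cohesin and Ctcf genes show at most 3 calls in a fraction.

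Proliferation genes changed with age too, in directions that differed between fractions. Of 20, 12 rose in aged HSCs and 17, 10, 19 and 15 in MPP1 to MPP4, 8 rose and 6 fell in GMPs, 1 rose and 6 fell in MEPs, and 12 fell in CLPs. Of all 14154 tested genes, 529 rose in HSCs, 667, 636, 1152 and 1459 in MPP1 to MPP4, 1405 in GMPs and 1285 in MEPs. Those that fell were 1269 in GMPs, 1658 in MEPs and 670 in CLPs. Smc1a was not called in the MPPs, where 10 to 19 of the 20 listed genes rose. Mki67, a marker of cycling cells, was called higher in the 3 fractions where Smc1a rose and in no other single fraction. In MEPs it was the 1 gene of the 20 that rose. It went from 6.72 and 6.91 CPM to 41.4 and 35.0 CPM in HSCs (2.48), from 33.6 and 33.2 CPM to 164 and 174 CPM in GMPs (2.34), and from 133 and 125 CPM to 319 and 255 CPM in MEPs (1.15). Top2a, the mitotic topoisomerase, went from 35.3 and 40.7 CPM to 76.9 and 48.8 CPM in HSCs (0.72), rose in GMPs (0.63) and differed by -0.28 in MEPs without passing. Over the 16 group means of log2 CPM, the correlation with the mean proliferation profile was 0.88 for Smc3, 0.84 for Stag1, 0.78 for Pds5a, 0.74 for Ctcf, 0.61 for Stag2, 0.59 for Rad21, 0.42 for Smc1a, 0.37 for Pds5b and 0.31 for Nipbl. The groups share libraries and cell types, so these are descriptions. The part of proliferation in the age differences of the members was not tested.

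The genes most like the mean profile of the 9 members over the same 16 group means were Ckap5 (Pearson's r = 0.99), 1190002F15Rik (0.97), Nusap1 (0.97), Foxm1 (0.96) and Top2a (0.96). For single members the most similar gene was Ccnf for Smc3 (0.97), Ezr for Ctcf (0.97), Tmpo for Stag1 (0.97), Cep192 for Pds5a (0.97), Atm for Pds5b (0.96), Arid4a for Nipbl (0.96), Tcof1 for Smc1a (0.93), 1190002F15Rik for Rad21 (0.92) and Gmcl1 for Stag2 (0.92). Among the members themselves Smc3 and Ctcf were closest to each other (0.91), as were Stag1 and Pds5a (0.90) and Stag2 and Pds5b (0.89). Smc1a and Smc3, which pair in the ring, reached only 0.50, and Pds5b with Ctcf -0.05.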

How the data were processed

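Total RNA was amplified with the SMARTer Ultra Low Input kit and made into NEBNext Ultra libraries. The authors aligned reads to mm10 with TopHat2 2.0.13 and Bowtie2 2.1.0 and derived raw gene counts with StringTie, per the labels and methods. The deposited counts of 32 libraries are whole numbers without normalization, and no per-sample column was left unmapped. The authors' normalized table and their comparison tables, which hold fold changes and p-values, were not used. Counts were tested with edgeR 4.0.16 (R 4.3.3), with TMM scaling, filterByExpr over 16 groups, 1 mean per group and quasi-likelihood F-tests over all 32 libraries, and p-values were adjusted by Benjamini-Hochberg over the 14154 genes in each comparison and called under 0.01. Ratios used counts plus 0.5 and exact permutation over samples. The code was tested on simulated counts. Alternatives were DESeq2 1.42.0, its size factors, no filter, a threshold of 0.05, offsets for GC content and length (annotated for 98.9% of tested genes), a replicate block, leaving out each library, and fits of 4 libraries alone. The members and gene lists were chosen with earlier results of these data known. In each age comparison all 9 members are named, with Mau2, Wapl, the germline paralogs, Mki67, Top2a, the 3 called genes of each pathway list with the largest mean difference, and the genes most like the members.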

Additional observations from a re-analysis of the deposited data

Results flagged for a closer look

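The age differences of 5 genes were set apart because they differed between fractions by a test of the difference itself. Over all 8 fractions this held for Smc1a (edgeR interaction test, adjusted p = 0.000198) and Nipbl (adjusted p = 0.00538). Against the mean of the MPPs, the age difference of Smc1a was greater by 1.05 (log2) in MEPs and by 0.64 in GMPs, and that of Nipbl by 0.61 in MEPs and 0.71 in GMPs. In MEPs the corresponding differences were -0.84 for Stag2, -0.70 for Pds5b and -0.68 for Stag1. Groups of 2 libraries were not tested for a library far from the others.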

How the results depend on the processing

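The numbers below are members called of 9 unless said otherwise. With a threshold of 0.05 they were 5 in MEPs, 1 in CLPs, 2 in the mean of the MPPs, 2 each for HSCs and CLPs against the MPPs and 6 for the interaction. With GC and length offsets they were 1 in MPP4, 7 in the mean of the MPPs, 3 for HSCs and 4 for CLPs against the MPPs and 4 for the interaction, and with the replicate block added to the offsets 1, 8, 3, 3 and 5, and 4 in the mean over 8 fractions. Of all genes, the offsets called 3111 in MPP4, 5591 in the mean of the MPPs, and 1768 for HSCs and 3445 for CLPs against the MPPs. With the block added these were 3114, 5568, 1766 and 3434, and 4727 in the mean over 8 fractions. DESeq2 gave 2 for HSCs and 2 for CLPs against the MPPs and 6 for the interaction. Over all genes it called 1135 for HSCs and 3976 for CLPs against the MPPs. Without the filter the mean over 8 fractions had 1, and fits of 4 libraries alone had 0 in HSCs and 1 in MPP2. Over all genes the numbers called were 3945, 207 and 3336. Counts over all genes are not given here for the interaction under these settings or for fits that left out 1 library. The offsets also moved the share of all age calls that were higher, from 69.2% to 45.2% in HSCs, 58.4% to 80.6% in MPP3, 52.5% to 38.4% in GMPs, 43.7% to 64.2% in MEPs and 55.5% to 69.3% in the mean over 8 fractions. The cause was not tested. Within a fraction, same-numbered young and aged libraries correlated between -0.056 and 0.070 after removal of group means, so they were not read as pairs. Whether same-numbered libraries of different fractions deviate together was not checked. The means over fractions and the ratio tests treat libraries of different fractions as independent. The replicate block alone changed no call, with 3 members in MEPs and 2 in GMPs. Leaving out 1 library gave 0 to 3 in HSCs, 0 in MPP1, MPP2, MPP3, MPP4 and CLPs, 1 in GMPs, 1 to 2 in MEPs, 1 to 2 in the mean of the MPPs, 1 to 4 in the mean over 8 fractions, 0 to 3 for HSCs, 0 to 2 for GMPs, 1 to 5 for MEPs and 0 to 1 for CLPs against the MPPs, 1 to 5 for the interaction, and 8 to 9 among young and among aged fractions.

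Among ratios (mean log2 difference), leaving out GMPs and MEPs gave -0.075 for Stag2 to Stag1, -0.11 for Pds5b to Pds5a and 0.11 for Smc1a to Smc3, none past the threshold. Offsets gave -0.052 and -0.16 for the first 2, and the MPPs alone gave -0.093 for Pds5b to Pds5a, 0.048 for Smc1a to Smc3 and, now past it, -0.32 for Nipbl to Mau2. Leaving out 1 replicate number gave -0.13 to -0.10, -0.21 to -0.17, 0.20 to 0.28 and -0.16 to -0.14 in the order Stag2 to Stag1, Pds5b to Pds5a, Smc1a to Smc3 and Nipbl to Mau2.

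Directions turned only for values with no call as reported. Leaving out 1 library took Stag1, Stag2 and Pds5b in HSCs down to -0.68, -0.80 and -0.55, and against the MPPs to -0.89, -0.88 and -0.72, all without aged HSC replicate 1. Without aged HSC replicate 2, Stag1, Stag2 and Pds5b in HSCs were 0.21, 0.30 and 0.18, and against the MPPs 0.0052, 0.22 and 0.011. Without young HSC replicate 1 Pds5b in HSCs was 0.017, and Stag1 in the mean over 8 fractions was 0.029 with the offsets and 0.030 with the block added. Of the single-gene values, 1597 kept direction and side of the threshold, 97 passed it newly, 95 lost it and 9 turned. These cover the 36 results called as reported and 38 called only under an alternative. The other 79, called in no setting, were left out after signs of values near 0 had been seen to turn.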
